A study of Mus musculus with 24 samples.

Results

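The clustered protocadherins are 58 protein-coding genes that lie in a row on mouse chromosome 18 and fall into an alpha, a beta and a gamma cluster. They were taken from the gene table by biotype, chromosome and symbol, which gave 14 alpha, 22 beta and 22 gamma genes of 45594 genes in all. The alpha cluster holds 12 alternate genes and 2 C-type genes (Pcdhac1 and Pcdhac2), and the gamma cluster holds 12 A-type, 7 B-type and 3 C-type genes (Pcdhgc3, Pcdhgc4 and Pcdhgc5). On build GRCm38 all 58 are annotated on the plus strand, with Pcdha1 starting at position 36930184 and the last gamma gene ending at 37841873. All 58 passed the filter on low counts, in which 21858 genes were tested.

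Clustered protocadherins are cadherin-like proteins of the neuronal surface that bind the same isoform on a neighbouring membrane. Each alpha and gamma gene has its own promoter and its own large variable exon, which codes for the outer part and the membrane span and is spliced to constant exons shared by the whole cluster. A beta gene has no shared constant exons. A single neuron switches on a few alternate genes, with the help of CTCF, cohesin and DNA methylation at the promoters, and this gives it a surface identity that lets its own branches recognise and avoid each other. In the mouse retina the gamma cluster is known for the self-avoidance of starburst amacrine cells and for the survival of interneurons and ganglion cells.

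The libraries were made from whole retinas of C57/Bl6N mice with no treatment, at the embryonic days E11, E12, E14 and E16, at P0 (birth), P2, P4 and P6, and later at the postnatal days P10, P14, P21 and P28. Each of the 12 stages has 2 libraries (24 in all), and all carry the same strain background. Libraries of E11 and E12 were built from 100 ng of RNA and the others from 1 µg. The labels do not say whether the libraries of a stage came from separate animals, so every p-value reflects only how far the libraries of a stage differ. Library totals were 24567532 to 35898879 estimated counts. Retinal progenitor markers (Rax, Sox2, Ccnd1, Hes5) summed to 636.6 to 3478 CPM (counts scaled to a common library total) in the libraries of E11 to P2, and rod markers (Nrl, Nr2e3, Gnat1, Pde6b) to 10090 and 10800 CPM at P28. Lens genes stood apart in E11 replicate 1 (3122 CPM), E12 replicate 2 (2975 CPM) and E14 replicate 2 (2104 CPM), with 5 of 5 lens markers detected in all of them.

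The values are estimated counts, and in these clusters many reads fit several genes. The representative transcripts of all 14 alpha genes end in the same 2860 bases, and those of 21 gamma genes end in the same 2119 bases. The remaining gamma gene, Pcdhgb8, has only a transcript that does not reach the shared last exon. Over stretches of 31 bases, the median share of a member's transcript found in no other gene was 36.4% for alpha, 88.2% for beta and 53.0% for gamma. Of these representative transcripts that of Pcdha4 had the lowest share (2.18%). Other annotated genes of the region were part of this comparison, whether or not they had reads. Gm42416, annotated from within Pcdha4 into the gamma cluster, had 0 CPM in every library. Its part in the low share of Pcdha4 was not determined. The Pcdhgb8 transcript, left out of the gamma median, had no stretch of its own (0.0%). Beta values rest mostly on reads of the gene itself, while alpha and gamma values depend more on how the authors' estimation divided shared reads. The file gives 2 entries the symbol Pcdha11. The upstream entry lies where RefSeq places Pcdha10, so both are given here by position. The entry called Pcdhgc4 here carries the symbol Pcdhga8 in the file and is Pcdhgc4 in GENCODE and RefSeq.

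All 3 clusters rose during retinal development, with the alpha and beta clusters starting from near absence and the gamma cluster already present at E11. Levels are CPM scaled by TMM, a between-library correction. The summed alpha level was 92.4 and 85.9 CPM in the E16 libraries, against 1.92 and 1.97 CPM in the E11 libraries. The summed beta level was 154.7 and 163.2 CPM at E16, against 15.9 and 8.38 CPM at E11. The summed gamma level was 314.3 and 270.5 CPM at E16, against 143 and 166 CPM at E11. In each cluster both E16 libraries were above both E11 libraries. In whole tissue, more RNA per cell and more cells that express a gene cannot be told apart.

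The clusters differed in how far they had come at each stage. As a share of its highest stage mean, the alpha sum stood at 1.01% at E11, 1.25% at E12, 12.6% at E14, 46.2% at E16, 64.3% at P0 and 74.2% at P6. The beta sum stood at 2.77%, 4.92%, 14.17%, 36.3%, 53.8% and 73.1% at the same stages. The gamma sum stood at 29.4%, 31.7%, 48.2%, 55.7%, 48.9% and 66.3%. The gamma cluster therefore held 91.5% ± 3.68 of all clustered protocadherin CPM at E11, 54.0% ± 2.77 at E16, 41.6% ± 2.98 at P0 and 45.1% ± 0.602 at P28 (SD, n = 2 each). The beta share was 39.8% ± 1.18 at P28 and 7.32% ± 3.63 at E11, and the alpha share 15.03% ± 0.58 at P28 and 1.16% ± 0.0558 at E11. These shares are sums over genes of different length and were not tested.

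**Figure D1:**
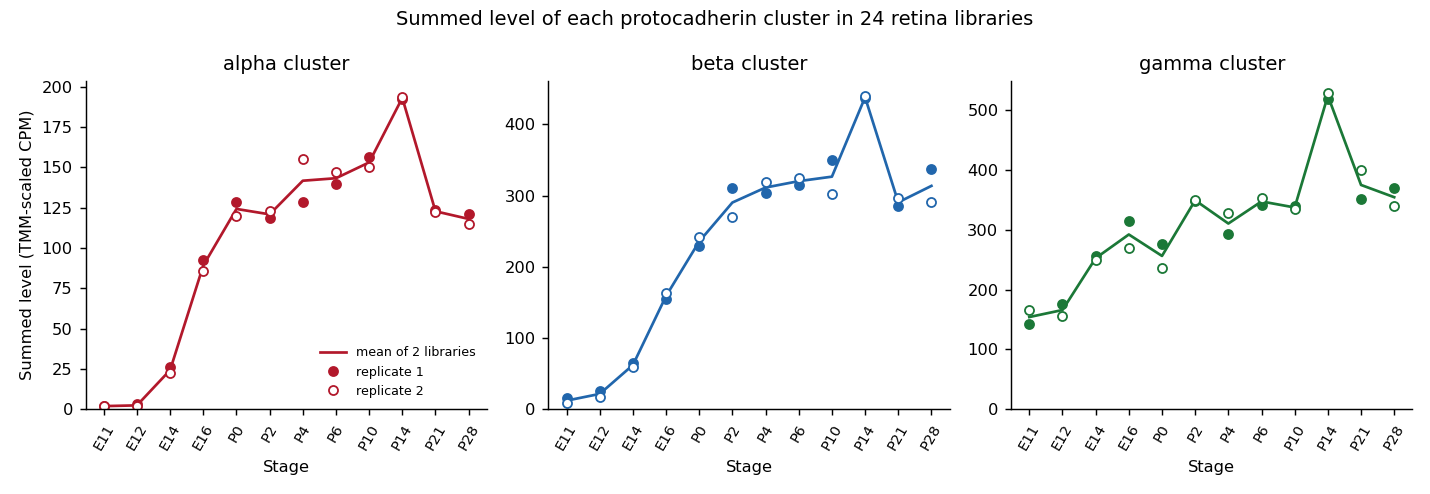
Summed level of the alpha, beta and gamma clusters (TMM-scaled CPM, linear axes from 0) by stage from E11 to P28; points are single libraries and the line joins the means of 2 libraries. Alpha and beta sums start near 0 at E11 (1.95 and 12.12 CPM), the gamma sum at 154 CPM, and all 3 are highest at P14.

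Nearly every member varied over the 12 stages. By edgeR's quasi-likelihood F test over all stages with Benjamini-Hochberg adjustment, 57 of 58 members were called (adjusted p under 0.05 and at least 2-fold between the highest and lowest fitted stage), against 77.3% of all genes tested. The exception was Pcdhgb5, a B-type gamma gene, whose adjusted p was 0.00178 but whose fitted range was 0.88 on the log2 scale. The median range was 11.44 for alpha, 5.54 for beta and 2.09 for gamma members, against 2.21 for all genes tested. For alpha genes without counts at E11 this fitted range depends on the prior count of the model.

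The step from E11 to E16 held the largest changes. In E16 vs E11 45 members were called higher and 0 lower, against 13.6% of all genes higher and 9.11% lower. The called genes were 14 of 14 alpha, 21 of 22 beta and 10 of 22 gamma members. Median log2 changes were 7.02 in alpha (6.55 with genes absent at E11 set to their lower bound), 3.89 in beta and 0.95 in gamma, against 0 over all genes tested. Both E16 libraries were above both E11 libraries for 14 alpha, 21 beta and 20 gamma members, against 34.2% of all genes, and below for 0 members, against 33.9%. DESeq2 also called 45 members higher and 0 lower, with 4711 genes called in all, against 4958 with edgeR. Among alpha members with a count at E11 the changes ran between 3.51 and 7.13. Those of beta members, leaving out Pcdhb1, ran between 2.55 and 5.40, and those of gamma members, leaving out Pcdhgb8, between 0.32 and 1.80, since these genes had 0 or 1 count in the compared libraries.

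Of the alternate alpha genes, Pcdha4 had 9.15 and 8.97 CPM at E16 and no count in either E11 library. With 594 counts at E16 and a floor of 3 counts over both E11 libraries, it was at least 179.9-fold higher at E16 (adjusted p 8.61e-09, edgeR quasi-likelihood test). Pcdha7 had 8.54 and 9.19 CPM at E16 and none at E11, and was at least 176-fold higher. Pcdha1, the most upstream member, stayed low, with 0.945 and 1.26 CPM at E16, 0.25 and 0 CPM at E14 and none at E11 or E12. Pcdha5 and Pcdha12 also had none at E11 or E12. In all, 6 alternate alpha genes had no count at E11, namely Pcdha1, Pcdha4, Pcdha5, Pcdha6, Pcdha7 and Pcdha12. The smallest alpha change was that of Pcdha8 (log2 3.51, SE 0.78, adjusted p 0.00147). The number of alpha genes with at least 1 count was 5 and 5 in the E11 libraries, 6 and 3 in the E12 libraries and 14 and 13 in the E14 libraries. The E11 libraries held only 58.6 and 57.5 alpha counts, so shares between alpha genes at that stage are imprecise.

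Among the beta genes, Pcdhb16 had 13 and 14.3 CPM at E16, against 0.459 and 0.174 CPM at E11 (log2 5.40, SE 0.29, adjusted p 1.12e-10, edgeR quasi-likelihood test). Pcdhb17 had 18.4 and 20.4 CPM at E16, against 0.933 and 0.103 CPM at E11 (log2 5.22, SE 0.38, adjusted p 6.52e-09). Its change was 7.51 without E11 replicate 1 and 4.40 without E11 replicate 2. For both genes every E16 library was far above every E11 library, and E11 replicate 1 was the higher of the E11 pair. Pcdhb22, the last gene of the cluster, held 23.9% and 33.6% of beta counts in the E11 libraries. It had 19.8 and 18.8 CPM at E16, against 3.79 and 2.81 CPM at E11 (log2 2.55, SE 0.14). Pcdhb1, the first gene of the cluster, was the member not called: 1 count was found at E16 and 0 at E11, which is at or under the floor. Across the 22 beta genes the log2 change tended to be larger for genes further downstream (Spearman correlation 0.543 with the order along the chromosome, a description across neighbouring genes of the same libraries). This value includes Pcdhb1 at the floor, and the last gene, Pcdhb22, had the smallest called change. Over the 14 alpha genes, some without counts at E11, the correlation was -0.415.

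Gamma genes were present from the start and had smaller changes. Pcdhgb1 had 8.67 and 6.94 CPM at E16, against 2.61 and 1.89 CPM at E11 (log2 1.79, SE 0.25, adjusted p 1.66e-05, edgeR quasi-likelihood test). Pcdhga4 had 12.5 and 14.5 CPM at E16, against 6.47 and 3.83 CPM at E11 (log2 1.39, SE 0.22). Pcdhga11 had 26.1 and 23.96 CPM at E16, against 9.90 and 12.15 CPM at E11 (log2 1.18, SE 0.21). In these genes the libraries of the stages did not overlap. Pcdhgb6 stood just under the 2-fold threshold, with 20.1 and 20.4 CPM at E16 and 10.08 and 10.3 CPM at E11 (log2 0.99, SE 0.14, adjusted p 2.14e-05). It was called with library size alone (1.14), with no filter (1.02), without E11 replicate 2 (1.01) and without E16 replicate 1 (1.00). Pcdhgb7 had 15.4 and 16.13 CPM at E16, against 8.57 and 9.80 CPM at E11 (log2 0.78, SE 0.18). By adjusted p alone 20 of 22 gamma members were higher at E16 and 0 lower, against 22.6% of all genes higher. Among gamma members upstream genes had the larger changes (Spearman correlation -0.415 over 21 genes, leaving out Pcdhgb8).

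**Figure D2:**
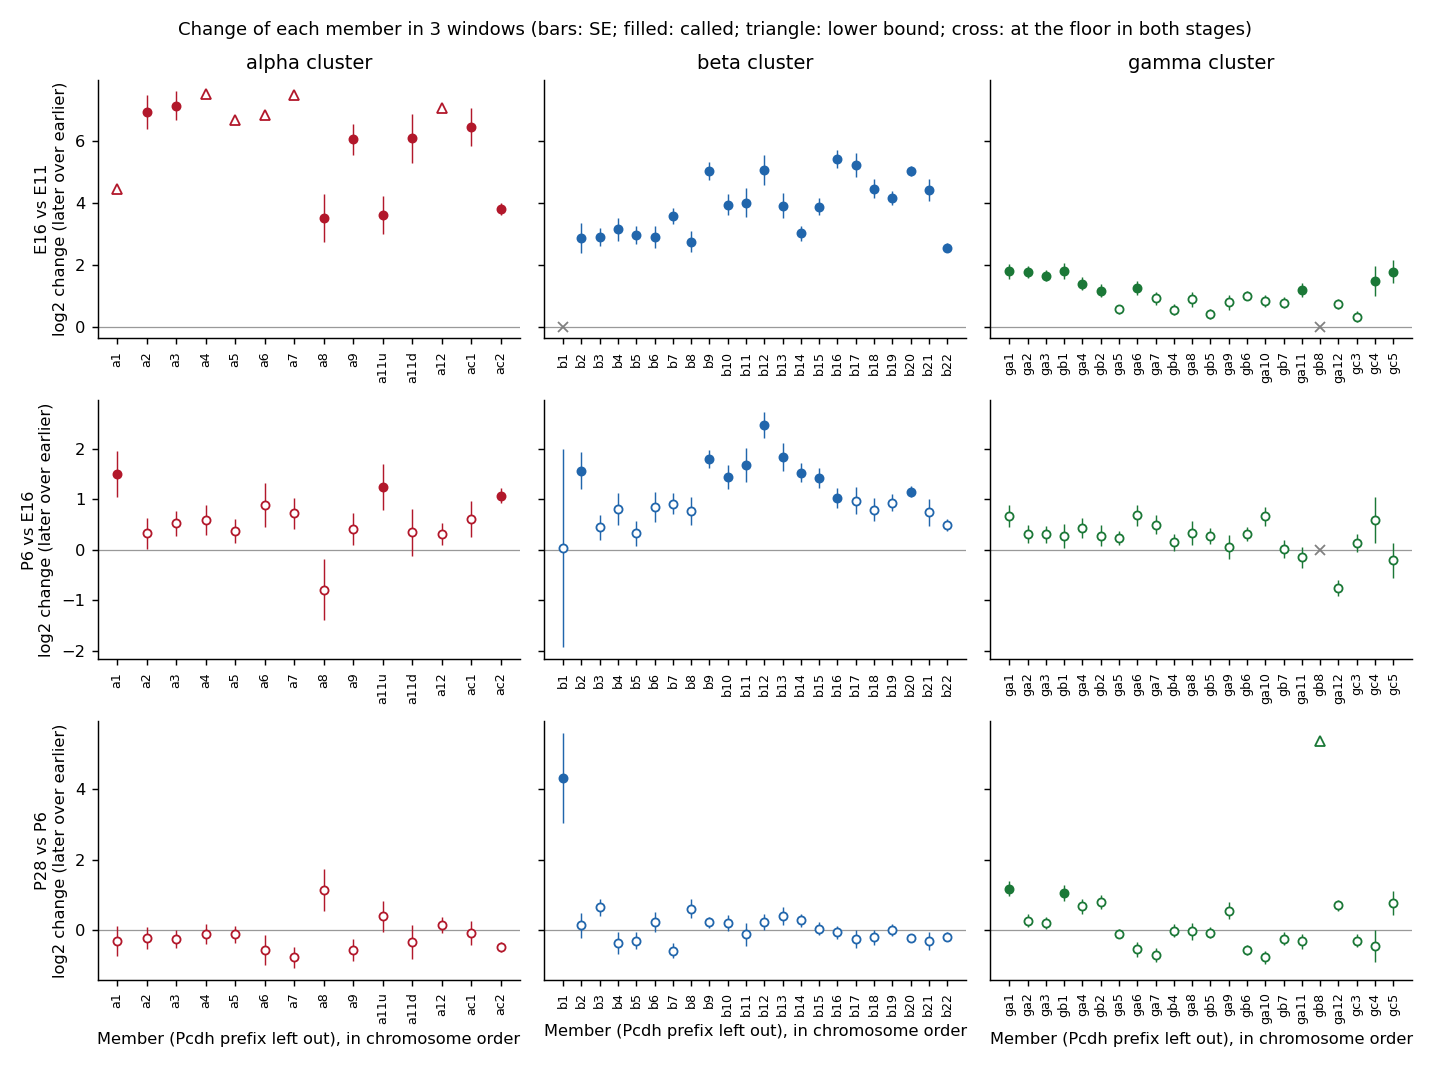
Log2 change of each member (later over earlier stage, bars are SE) in E16 vs E11, P6 vs E16 and P28 vs P6, by order along the chromosome; filled points were called, triangles are lower bounds for members with no count in the earlier stage (all 7 were called), and crosses mark members at the floor in both stages. The change from E11 to E16 is largest in alpha and beta, and few members are called from P6 to P28. From E16 to P6 most called members are beta genes, largely in the middle of the cluster, and several other beta genes lie just under 2-fold.

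Other tissues were carried along at E11. Summed over 5 of 5 markers in each list, lens genes stood at 0.919 and 1.17 CPM at E16, against 3122 and 15.4 CPM at E11. Red cell genes, embryonic and adult globins and Alas2, stood at 45.7 and 69.7 CPM at E16, against 3083 and 7519 CPM at E11. Most of the E16 sum was the adult globin gene Hba-a1 (39.8 and 59.5 CPM). Mesenchyme genes stood at 10.97 and 9.20 CPM at E16, against 136 and 102 CPM at E11. The lens markers Cryaa and Lim2 were at 0 in both E16 libraries, and none of the lens, red cell and mesenchyme markers was at 0 at E11. Ganglion cell genes moved the other way, with 690 and 667 CPM at E16 and 49.2 and 53.2 CPM at E11. The part of these lists in the protocadherin changes was not tested. Without E11 replicate 1, the library with high lens genes, E11 rests on replicate 2 alone, which had the higher red cell sum (7519 CPM). Leaving that library out therefore cannot decide the part of other tissues.

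The 5 C-type genes are known to be expressed more evenly between neurons than the alternate genes, and they followed separate courses here. Pcdhac2, which is needed for the spacing of serotonergic axons in the mouse brain, had the highest level per length of the alpha genes at every stage. It had 18.2 and 17.3 CPM at E16, against 1.59 and 0.971 CPM at E11 (log2 3.798, SE 0.18, adjusted p 3.07e-11, edgeR quasi-likelihood test). Pcdhac1 had 5.29 and 4.16 CPM at E16, against 0.0954 and 0 CPM at E11, a ratio of 93.9 with a counting interval of 31.8 to 458 (95%, from 310 and 3 counts). For both alpha C-type genes the libraries of E16 and E11 did not overlap.

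Pcdhgc3, which binds the Wnt pathway scaffold Axin1, had the highest level per length of the gamma genes at E11. It had 57.0 and 56.5 CPM at E16, against 34.5 and 56.5 CPM at E11 (log2 0.32, SE 0.18, adjusted p 0.151), and E11 replicate 2 lay at the level of E16. It was highest at P14 (106.5 and 112.4 CPM) and P2 (92.7 and 101.8 CPM), with 47 to 65.9 CPM in the libraries of E16, P0, P4, P6, P10, P21 and P28. In both P2 and P14 the pair of libraries stood above all libraries of the neighbouring stages.

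Pcdhgc4 is the gamma isoform on which neuronal survival depends in the mouse. Its values differed strongly between replicates at E16 and P10. It had 44.7 and 8.72 CPM at E16, against 7.97 and 11.4 CPM at E11, so the groups overlapped (log2 1.46, SE 0.48, adjusted p 0.0185). That call rests on E16 replicate 1: without it the change was -0.15 (adjusted p 0.782), and without E11 replicate 1 it was 1.23 (adjusted p 0.115). At P10 the replicates had 48.4 and 89.3 CPM, at P14 74.3 and 74.0 CPM and at P28 33.1 and 26.2 CPM. Pcdhgc5, which binds GABA-A receptors, was low and highest at P21. It had 5.99 and 4.99 CPM at E16, against 1.90 and 1.31 CPM at E11 (log2 1.77, SE 0.37, adjusted p 0.000714), and 12.3 and 8.66 CPM at P21. With only transcripts that reach the shared last exon, this change at E16 was 0.12 (adjusted p 0.84).

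**Figure D3:**
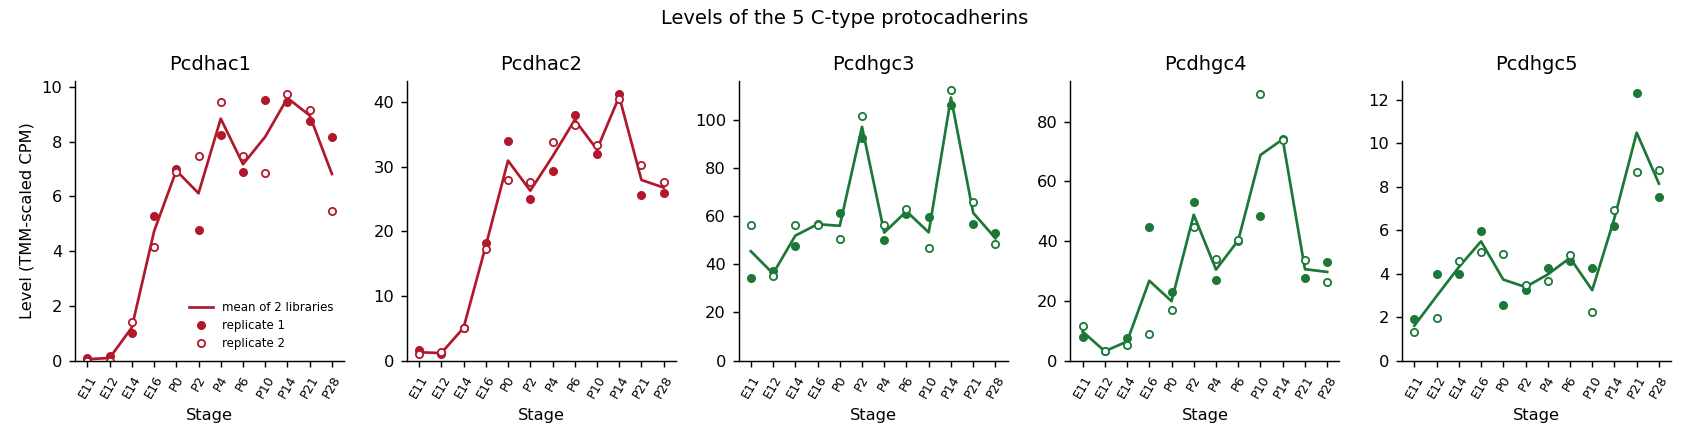
Level (TMM-scaled CPM, linear axes from 0, scaled per gene) of the 5 C-type genes by stage; points are single libraries and the line joins the means of 2 libraries. The alpha C-type genes climb from near 0 before E14, Pcdhgc3 is present from E11 with high values at P2 and P14, and the replicates of Pcdhgc4 lie far apart at E16 and P10.

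C-type genes made up 28.5% ± 0.421 of alpha counts at P28 and 25.2% ± 0.303 at E16 (SD, n = 2 each), and single libraries gave 25.01% to 32.3% from E16 onward. At E11 the share was 87.6% and 49.2% in single libraries, from few counts. In the gamma cluster the C-type share was 36.4% ± 7.51 at E11, 30.1% ± 5.88 at E16, 42.8% ± 0.00253 at P2, 36.2% ± 0.35 at P14 and 25.0% ± 0.529 at P28. Evenness was summarised as the effective number of members, the number of equally expressed genes that would give the same entropy of shares. For alpha it was 2.87 ± 1.22 at E11, 11.6 ± 0.107 at E16 and 11.43 ± 0.482 at P28. For beta it was 13.2 ± 2.0 at E11, 16.3 ± 0.0633 at E16 and 18.2 ± 0.105 at P28. For gamma it was 13.96 ± 2.28 at E11, 16.04 ± 0.118 at E12, 13.3 ± 0.0688 at P2 and 18.2 ± 0.257 at P28. Thinned to 500 counts per cluster and library, the gamma value was 17.82 ± 0.17 at P28 and 15.86 ± 0.25 at E16, and the beta value 17.78 ± 0.11 at P28 and 15.96 ± 0.05 at E16. The alpha libraries of E11 and E12 have too few counts for this.

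Per kilobase of transcript, so that genes of different length can be compared, Pcdhac2 led the alpha cluster at E16, P6, P14 and P28, with 4.67 CPM per kb at P28 and 2.98 at E16, and Pcdha4 was next at each of them. Pcdhb17 led the beta cluster at E16, P6 and P28 (6.74 CPM per kb at P28). Pcdhgc3 and Pcdhgc4 led the gamma cluster at P6, P14 and P28, with 11.8 and 7.997 CPM per kb at P28. At E16 Pcdhgc4 stood at 6.58 ± 6.21 CPM per kb (SD, n = 2), a value that rests on replicate 1, so its rank there is uncertain. The median member had 1.44 CPM per kb in alpha, 3.11 in beta and 2.91 in gamma at P28, and 1.18, 1.49 and 2.11 at E16. The order of the cluster medians thus differed between these stages, and beta and gamma medians at P28 lay close together.

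Between E16 and P6, the time of birth and early synapse formation in the retina, most of the members called higher were beta genes. In P6 vs E16 13 members were called higher and 0 lower, against 13.2% of all genes higher and 11.7% lower. The called genes were 3 of 14 alpha, 10 of 22 beta and 0 of 22 gamma members, with median log2 changes of 0.55, 0.95 and 0.28, against 0.01 over all genes. Both P6 libraries were above both E16 libraries for 47 members and below for 3, against 37.5% and 37.3% of all genes. By adjusted p alone 26 members were higher and 1 (Pcdhga12) lower, against 22.8% and 24.3% of all genes. The called beta genes were Pcdhb2, the run of Pcdhb9 to Pcdhb16, and Pcdhb20. By adjusted p alone 19 of 22 beta members were higher. Pcdhb17 (log2 0.97), Pcdhb19 (0.93) and Pcdhb7 (0.91) lay just under 2-fold, so the borders of this run depend on the threshold. With summed transcripts Pcdhb6, Pcdhb8 and Pcdhb17 were called too. Within that run Pcdhb16 fell under 2-fold without E16 replicate 1 or P6 replicate 1 (0.95 each), and Pcdhb2 did so (0.84) when transcripts were summed per gene. Over all genes 5451 were called in the main settings, and 5545 both with summed transcripts and with full-length transcripts. Of the members, 16 were called with summed transcripts and 17 with full-length transcripts (in alpha and gamma, those that reach the shared last exon, whatever their length). They then included the gamma gene Pcdhgc4 (log2 1.30, adjusted p 0.00253, and log2 1.38, adjusted p 0.01, edgeR quasi-likelihood test), which was also called without E16 replicate 1 (log2 2.204, adjusted p 0.000116). Cell-type markers moved in the same window. The 4 retinal progenitor markers summed to 256.5 and 318.7 CPM at P6, against 2933 and 2985 CPM at E16, and the 4 rod markers to 2792 and 2692 CPM at P6, against 6.49 and 7.07 CPM at E16. Their part in the protocadherin changes was not tested.

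Pcdhb12 changed most, with 6.82 and 6.84 CPM at P6 and 1.49 and 0.98 CPM at E16 (log2 2.46, SE 0.26, adjusted p 5.42e-07, edgeR quasi-likelihood test). Pcdhb9 had 14.7 and 16.8 CPM at P6, against 4.202 and 4.83 CPM at E16 (log2 1.80, SE 0.18). The libraries of both genes were clearly separate. Pcdhac2 had 38.0 and 36.4 CPM at P6, against 18.2 and 17.3 CPM at E16 (log2 1.07, SE 0.15, adjusted p 1.13e-05). Pcdha1 had 3.35 and 2.91 CPM at P6, against 0.945 and 1.26 CPM at E16 (log2 1.5, SE 0.45, adjusted p 0.0133), a call lost without E16 replicate 1 (adjusted p 0.101) or P6 replicate 1 (0.0594). The upstream Pcdha11 entry was also called (log2 1.24, adjusted p 0.0336), and lost its call without any of the 4 libraries compared (adjusted p 0.0748 to 0.144). Among gamma genes Pcdhgb7 (log2 0.02), Pcdhga11 (-0.15) and Pcdhgc3 (0.13) were within their standard errors of no change.

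The summed level of each cluster was highest at P14, about the time of eye opening. The alpha sum was 192.2 and 193.9 CPM at P14, and no other library passed 156.1 CPM. The beta sum was 437 and 439 CPM at P14, with 350.3 CPM in the highest other library. The gamma sum was 519 and 529.8 CPM at P14, with 399.6 CPM in the highest other library. In each cluster both P14 libraries were above all 22 others, also with library size alone in place of TMM. Of the members, 11 of 14 alpha, 20 of 22 beta and 13 of 22 gamma genes had their highest stage mean at P14. The exceptions in beta were Pcdhb22, highest at P2, and Pcdhb1, highest at P28. The longer transcript of Pcdhb22 by itself was highest at P14 (mean 32.81 CPM, against 23.51 CPM at P2). Pcdhga11 and Pcdhga12 had their highest stage mean at E16, but 7 and 5 libraries of other stages reached or passed the lower E16 library. Pcdhga1, Pcdhgb1, Pcdhgb2 and Pcdhgb8 had theirs at P28. For some members highest at P14, libraries of other stages also reached or passed the lower P14 library. There were 6 such libraries for Pcdha8, 3 for Pcdha2 and 1 for several other members. How many of all genes tested are highest at P14 was not determined. Marker sums of several cell types also changed around P14, though not all in the same way. The 5 amacrine markers summed to 796 and 733 CPM at P10, 1205 and 1239 CPM at P14 and 1137 and 1153 CPM at P21. Within this list Gad1 (390.6 and 383.9 CPM) and Slc6a9 (170.5 and 179.3 CPM) at P21 stood above their P14 values. Tfap2a, Tfap2b and Pax6 stood below theirs. The 4 rod markers summed to 4323 and 4977 CPM at P10, 6406 and 6408 CPM at P14 and 12290 and 11970 CPM at P21. The 4 Muller glia markers summed to 1608 and 1536, 2647 and 2918, and 3167 and 3132 CPM at these stages. The 5 bipolar markers summed to 793 and 700, 957 and 1006, and 688 and 733 CPM. Within that list Pcp2 was higher at P21 than at P14, and Grm6 overlapped between P10 and P14. The 5 starburst amacrine markers summed to 97.96 and 85.2, 131.1 and 146.8, and 86.1 and 90.2 CPM. Of these, Chat overlapped between P14 and P21. The 5 ganglion cell markers stood at 367 and 383 CPM at P10, 384 and 418 CPM at P14 and 234 and 255 CPM at P21. Isl1 made up most of that sum at P10 (250.3 and 257.1 CPM) and was lower at P14 (194.6 and 225.9 CPM). Sncg, Rbpms, Pou4f1 and Pou4f2 were higher at P14 than at P10. Of cells from outside the neural retina, the 5 pigment epithelium markers summed to 28.7 and 30.6 CPM at P10, 32.2 and 28.21 CPM at P14 and 5.30 and 8.52 CPM at P21. For pigment epithelium the libraries of P10 and P14 overlapped. Markers of endothelium stood at 56.7 and 53.8 CPM at P10, 67.98 and 69.2 CPM at P14 and 38.0 and 37.7 CPM at P21. Those of microglia stood at 33.2 and 29.8 CPM at P10, 35.8 and 35.3 CPM at P14 and 15.47 and 18.1 CPM at P21. The part of these lists in the P14 values was not tested.

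**Figure D4:**
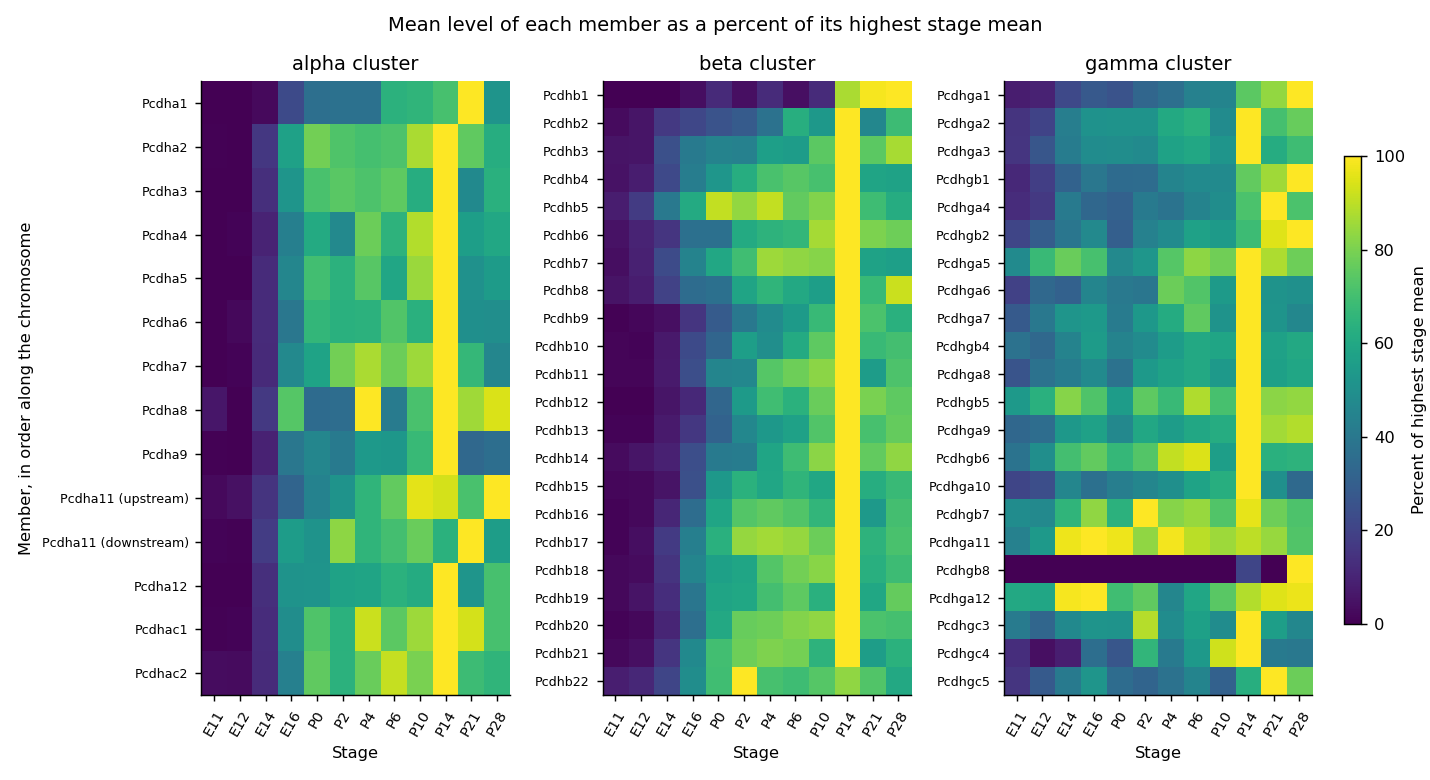
Mean level of each of the 58 members by stage as a percent of the member's own highest stage mean (colour scale 0 to 100%), with members in chromosome order. The P14 column is the highest for 11 of 14 alpha, 20 of 22 beta and 13 of 22 gamma members; the first gamma genes keep high values at P21 and P28.

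The comparisons around P14 were chosen after this pattern was seen, and most changes were below 2-fold. In P14 vs P10 2 members were called higher and 0 lower, against 3.45% and 1.08% of all genes. By adjusted p alone 18 were higher and 0 lower, against 18.7% of all genes in either direction. Both P14 libraries were above both P10 libraries for 46 members and below for 0, against 31.5% and 30.8% of all genes. Pcdhgc3 had 106.5 and 112.4 CPM at P14, against 59.7 and 47 CPM at P10 (log2 1.04, SE 0.18, adjusted p 0.000608, edgeR quasi-likelihood test). Pcdhga2 had 26.8 and 29.8 CPM at P14, against 15.1 and 12.22 CPM at P10 (log2 1.05, SE 0.18, adjusted p 0.000661). Neither Pcdhgc3 nor Pcdhga2 reached 2-fold with library size alone (0.94 and 0.95), without P10 replicate 2 (0.88 and 0.90) or without P14 replicate 2 (0.999 and 0.97), and 0 members were then called in the first 2 cases. DESeq2 called 3 members higher and 0 lower. Median log2 changes were 0.23 in alpha, 0.41 in beta and 0.71 in gamma, against -0.01 over all genes.

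In P21 vs P14 4 members were called lower and 0 higher, against 5.07% and 4.31% of all genes, and by adjusted p alone 25 were lower and 0 higher, against 29.2% in either direction. Both P21 libraries were below both P14 libraries for 44 members and above for 6, against 36.7% and 34.7% of all genes. Pcdha9 had 7.62 and 5.97 CPM at P21, against 22.4 and 17.7 CPM at P14 (log2 -1.56, SE 0.32, adjusted p 0.00169, edgeR quasi-likelihood test). Pcdha3 had 6.02 and 7.79 CPM at P21, against 13.99 and 15.1 CPM at P14 (log2 -1.08, SE 0.25, adjusted p 0.00447), a call lost without P21 replicate 1 (0.0654). The other calls, of Pcdhb2 (log2 -1.10) and Pcdhgc4 (log2 -1.28), were lost without any of the 4 libraries compared (adjusted p 0.0882 to 0.21). Median changes were -0.57 in alpha, -0.56 in beta and -0.41 in gamma, against -0.01 over all genes. Both comparisons share the P14 libraries, so they are not independent.

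At P28 the summed beta and gamma levels lay near those at P6, with the P14 maximum between them. The alpha sum was 143 ± 5.31 CPM at P6, 193 ± 1.21 CPM at P14 and 118 ± 4.22 CPM at P28 (SD, n = 2 each). The beta sum was 320.2 ± 6.61, 438 ± 1.64 and 314 ± 32.6 CPM at these stages, and the gamma sum 348 ± 8.67, 525 ± 7.32 and 355 ± 21.6 CPM. In P28 vs P6 4 members were called higher and 0 lower, against 24.7% of all genes in either direction. Median log2 changes were -0.23 in alpha, 0.04 in beta and -0.01 in gamma, against 0.04 over all genes. By adjusted p alone 8 members were higher and 7 lower, against 48.8% of all genes. Both P28 libraries were above both P6 libraries for 18 members and below for 21, against 40.1% and 37.5% of all genes. The 4 called genes were Pcdhb1, Pcdhga1, Pcdhgb1 and Pcdhgb8, and the calls of 3 of them were lost under DESeq2 or without 1 or more libraries. The 4 rod markers summed to 10090 and 10800 CPM at P28 and to 2792 and 2692 CPM at P6, and their part in the CPM of protocadherins was not tested.

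Pcdhga1 and Pcdhgb1 lie at the upstream end of the gamma cluster. Pcdhga1 had 22.6 and 19.9 CPM at P28, against 8.90 and 9.83 CPM at P6 (log2 1.18, SE 0.22, adjusted p 0.000229, edgeR quasi-likelihood test). Pcdhgb1 had 21.22 and 18.1 CPM at P28, against 10.3 and 8.53 CPM at P6 (log2 1.06, SE 0.23, adjusted p 0.00105), and it was under 2-fold with library size alone (0.97), with summed transcripts (0.92), and without P28 replicate 1 (0.95) or P6 replicate 2 (0.93). Pcdhga1 was under 2-fold with summed transcripts (0.79). Both genes have a deposited transcript that does not reach the shared last exon. That of Pcdhga1 had 14.95 and 15.57 CPM at P28, against 2.28 and 1.91 CPM at P6. That of Pcdhgb1 had 9.83 and 10.4 CPM at P28, against 1.55 and 1.18 CPM at P6. Counting only transcripts that reach the last exon, the change was -1.93 for Pcdhga1 (adjusted p 0.0849) and -0.02 for Pcdhgb1 (adjusted p 0.974), so neither gene passed the test as higher among full-length transcripts.

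The shorter transcripts also took a larger share of the gamma cluster as a whole. Transcripts that do not reach the last exon took 5.05% to 11.9% of gamma counts as stage means before P6, and then 7.31% ± 0.673 at P6, 7.29% ± 0.216 at P14, 16.035% ± 0.168 at P21 and 21.8% ± 1.58 at P28 (SD, n = 2 each). In CPM they summed to 78.3 and 78.6 at P28, against 24.04 and 28.02 at P6, while full-length gamma transcripts summed to 301 and 265 CPM at P28, against 328 and 332 CPM at P6. There are 15 such gamma transcripts and 23 of full length. In the full-length fit Pcdhga7 (log2 -1.31, adjusted p 0.00151), Pcdhgb4 (-1.50, adjusted p 0.016) and Pcdhgc4 (-1.08, adjusted p 0.0339) were called lower at P28 than at P6 by edgeR's quasi-likelihood test, and 0 gamma members were called higher. With all transcripts these changes were -0.71, 0.00 and -0.44. The alpha share of such transcripts varied without an order by age, between 1.95% at E12 and 18.2% at E14, with 4.28% ± 1.10 at P28 and 3.31% ± 1.88 at P6.

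**Figure D5:**
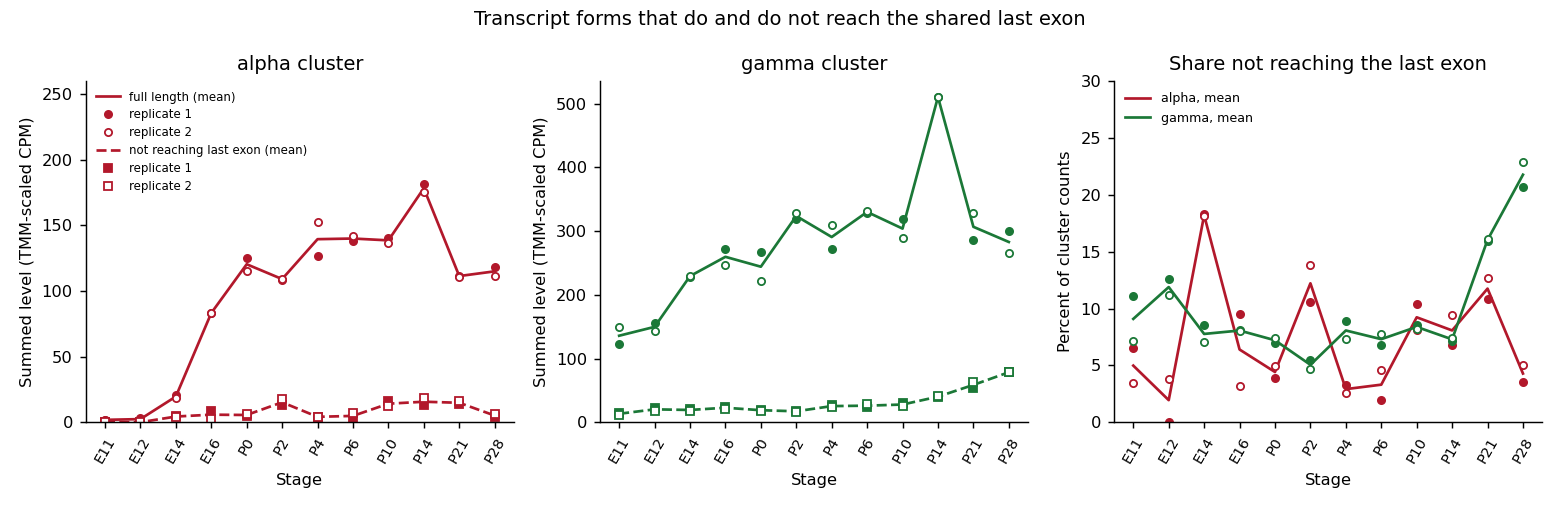
Summed level (TMM-scaled CPM) of transcripts that do and do not reach the shared last exon in the alpha and gamma clusters, and the percent of cluster counts in the latter kind, by stage; points are single libraries (filled replicate 1, open replicate 2) and lines join means. In the gamma cluster the shorter kind is near 7% at P6 and P14, 16.035% at P21 and 21.8% at P28, while the full-length sum is lower at P28 than at P14.

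A pair of noncoding genes next to or inside the clusters had a similar late course (chosen after their values were seen). The lincRNA 3222401L13Rik ends just before the start of Pcdhga1 on the same strand, at 37655451 to 37661742. It had 7.23 and 6.77 CPM at P6, 23.4 and 22.8 CPM at P21 and 28.06 and 31.9 CPM at P28. Gm10544 lies within the alpha cluster on the other strand, at 37159854 to 37178522. It had 7.77 and 6.40 CPM at P6, 25.1 and 24.1 CPM at P21 and 27.9 and 32.0 CPM at P28. In both, all P21 and P28 libraries were above all earlier ones. Libraries were directional, but no source used here gives the strand setting of the estimation, so reads of overlapping genes may be shared.

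By these estimates Pcdhb1 and Pcdhgb8 were the members that appeared last. Pcdhb1 had 0.518 and 0.259 CPM at P28, against 0 and 0.0306 CPM at P6 (27 counts against 1, a ratio of 24.9 with a counting interval of 4.104 to 1019). Its adjusted p was 0.0119, and 0.0777 with DESeq2. Pcdhgb8 had 2.92 and 0.925 CPM at P28 and no whole count at P6. Its estimate was thus at least 41.2-fold higher (adjusted p 0.019 by edgeR's quasi-likelihood test, and 0.354 with DESeq2). Outside P28 it had counts in P14 replicate 2 alone (0.81 CPM). The file holds a second Pcdhgb8 entry, classed as a polymorphic pseudogene, at the same place, so reads may be split between them.

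The other protocadherins, outside the clusters, moved in both directions. Of 12 such genes (δ-protocadherins and relatives), all 12 were called over the 12 stages. In E16 vs E11 5 were called higher and 2 lower, in P6 vs E16 3 higher and 1 lower, and in P28 vs P6 1 higher and 3 lower, against the genome-wide shares given above. Pcdh15, a cadherin of sensory cells linked to Usher syndrome, averaged 531.9 ± 44.1 CPM at P6 and 24.9 ± 1.06 CPM at E16 (SD, n = 2 each; log2 4.42, SE 0.21, adjusted p 2.68e-11, edgeR quasi-likelihood test). Pcdh10 averaged 93.5 ± 4.37 CPM at P6 and 20.01 ± 4.28 CPM at E16 (log2 2.22, SE 0.20). Pcdh8 averaged 6.25 ± 1.48 CPM at E16 and 0.131 ± 0.185 CPM at E11 (log2 5.50, SE 0.68). Pcdh20 averaged 12.4 ± 0.739 CPM at P28 and 3.08 ± 0.537 CPM at P6 (log2 2.005, SE 0.24), and Pcdh12, a cadherin of endothelial cells, 0.152 ± 0.0563 CPM at P28 and 2.48 ± 0.223 CPM at P6 (log2 -3.93, SE 0.55). Median changes of the 12 genes were 0.70, 0.55 and 0.08 in the 3 windows, against 2.98, 0.55 and -0.07 for all 58 clustered members. In P14 vs P10 1 of the 12 was called higher and 0 lower, with a median of 0.73, against 0.49 for the 58 members. In P21 vs P14 0 were called higher and 4 lower, with a median of -0.76, against -0.55 for the 58 members.

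Of the genes known to control the clusters, 10 of 14 were called over the 12 stages, against 77.3% of all genes. Of these 14 regulators (CTCF, cohesin subunits and loaders, SMCHD1, DNA methyltransferases, SETDB1 and WIZ), 0 were called higher and 1 lower in E16 vs E11, 0 and 2 in P6 vs E16, and 0 and 0 in P28 vs P6. Over all genes 13.6% were called higher and 9.11% lower in the first window, 13.2% and 11.7% in the second, and 24.7% in either direction in the third. By adjusted p alone (edgeR quasi-likelihood test), 5, 10 and 10 of the 14 passed in these windows in either direction. The shares of all genes were then 22.6% higher and 23.2% lower, 22.8% and 24.3%, and 48.8% in either direction. Dnmt3b, the methyltransferase that sets promoter methylation in the clusters of mouse neurons, averaged 24.4 ± 0.273 CPM at E16 and 83.8 ± 5.16 CPM at E11 (SD, n = 2 each; log2 -1.78, SE 0.18, adjusted p 3.95e-07, edgeR quasi-likelihood test). It fell further, to 6.15 ± 2.04 CPM at P6, against 24.4 ± 0.273 CPM at E16 (log2 -1.99, SE 0.19). Dnmt1, the maintenance methyltransferase, averaged 101.8 ± 3.29 CPM at P6 and 253 ± 5.99 CPM at E16 (log2 -1.31, SE 0.10). Ctcf averaged 187.7 ± 3.5 CPM at E16 and 187 ± 16.5 CPM at E11 (log2 0.01, SE 0.10). Dnmt3a was high at P14: it averaged 210.7 ± 32.0 CPM at P21 and 442 ± 38.0 CPM at P14 (log2 -1.07, SE 0.11, adjusted p 2.82e-06).

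Of 17 genes whose products bind or process clustered protocadherins or act in the cell below them, 4 were called higher and 0 lower in E16 vs E11, 0 in P6 vs E16, and 3 higher and 4 lower in P28 vs P6. The shares of all genes in these windows are those given for the regulators. Over the 12 stages 13 of the 17 were called, against 77.3% of all genes. By adjusted p alone 11, 10 and 16 of the 17 passed (edgeR quasi-likelihood test), to be read against the shares by adjusted p alone given there. Prkca, a kinase that acts in the gamma protocadherin pathway and marks rod bipolar cells, averaged 364.4 ± 27.7 CPM at P28 and 85.6 ± 8.58 CPM at P6 (log2 2.09, SE 0.19, adjusted p 1.42e-07, edgeR quasi-likelihood test). Cyfip2, a subunit of the WAVE complex, averaged 206.7 ± 14.8 CPM at E16 and 53.3 ± 2.08 CPM at E11 (log2 1.96, SE 0.12). Ptk2b, the kinase Pyk2 that gamma protocadherins inhibit, averaged 2.5 ± 0.33 CPM at P28 and 0.55 ± 0.192 CPM at P6 (log2 2.18, SE 0.47).

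The authors' deposited table of changes against E11 lists 54 of the 58 members among its 12718 genes in 36 expression clusters. Pcdhb1, Pcdhgb5, Pcdhgb8 and Pcdhga12 are the members outside it. Of the alpha genes in the authors' deposited table, 11 fall in expression cluster 15 and 3 in cluster 16, and of the beta genes 9 fall in cluster 15 and 11 in cluster 16. Of the gamma genes in the authors' deposited table, 7 fall in cluster 24, 6 in cluster 15 and the rest in 5 other clusters.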

How the data were processed

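Directional mRNA libraries of whole retina were sequenced. The submitters' processing notes name kallisto 0.42.4, edgeR 3.13.9 and build GRCm38.p5. The authors deposited estimated counts per transcript and per gene, and no source used here says how the gene values were made. The authors also deposited log2 changes against E11 with adjusted p-values and expression clusters, of which only the clusters were used. Here gene counts were rounded, filtered (filterByExpr by stage, minimum count 10), scaled by TMM and fitted over all 24 libraries with a coefficient per stage, which left 12 residual degrees of freedom (edgeR 4.0.16, limma 3.58.1, R 4.3.3). A call needed a Benjamini-Hochberg adjusted p under 0.05 over all genes tested and a change of at least 2-fold. The SE is the absolute log2 change over the root of its F statistic. Intervals and floors (3 counts over the libraries of a stage) cover counting error only. The fit was tested on simulated data. Libraries of 24567532 to 35898879 counts leave few alpha counts at E11 and E12. Libraries of a stage differed by more than sampling noise (chi-square per degree of freedom at least 8.98). The members and lists were chosen with earlier results of these data known. Some genes of the lists are not reported here and were left out of their counts and sums. Values in every library are given for the C-type genes, for the 2 genes of highest mean CPM in alpha alternate, beta, gamma A and gamma B, and for the called gene of largest change per cluster, window and direction. From each list the 2 called genes of largest change per window could be named. Other genes, Ctcf among them, were named after their values were seen. Alternatives were DESeq2 1.42.0, other scalings, no filter, no fold threshold, a replicate block, leaving out libraries and summed transcripts. The comparisons around P14, full-length transcripts only, leaving out 3 uncertain entries and leaving out E11 and E12 were added after seeing the data.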

Additional observations from a re-analysis of the deposited data

How the results depend on the processing

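The number of called members in E16 vs E11 was 45 under the main settings and with the replicate block, 45 to 46 without single libraries, and 55 with no fold threshold. Over all stages it was 57, 56 to 57 without single libraries, and 58 with no fold threshold. In P6 vs E16 it was 13, 11 to 14 without single libraries, and 27 with no fold threshold. In P28 vs P6 it was 4, against 15 with no fold threshold, 2 with DESeq2 and 1 to 4 without single libraries, the lowest without P28 replicate 1 and 2 without P6 replicate 2. In P14 vs P10 it was 2, against 18 with no fold threshold, 0 with library size alone, 4 with no filter, 4 with summed transcripts, 6 with full-length transcripts and 0 to 8 without single libraries (0 without P10 replicate 2, 8 without P10 replicate 1). In P21 vs P14 it was 4, against 25 with no fold threshold, 7 with no filter, 8 with summed transcripts, 7 with full-length transcripts and 2 to 6 without single libraries (2 without P21 replicate 1). The cause was not tested, except that no fold threshold admits smaller changes by construction. Totals over all genes moved too, so these counts do not show a sensitivity particular to the members. In P14 vs P10, 989 genes were called, against 985 with DESeq2, 952 with library size alone and 1309 with no filter. The total was 1119 with summed and 1121 with full-length transcripts. In P21 vs P14 it was 2049, against 2334 with no filter and 2140 with summed transcripts. In P28 vs P6 it was 5403, against 4992 with DESeq2. Counts without single libraries have no such total here.

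The summed alpha level moved with library size alone to 5.66 (log2, E16 over E11; 5.51 with TMM), -0.38 (P28 over P6; -0.28), 0.24 (P14 over P10) and -0.69 (P21 over P14), and with summed transcripts to -0.62 (P21 over P14). The summed beta level moved with summed transcripts to -0.52 (P21 over P14). The summed gamma level of P14 over P10 moved to 0.54 with library size alone and 0.73 with summed transcripts. Called changes that reversed were Pcdhgc4 in E16 vs E11 without E16 replicate 1 (-0.15; -0.15 to 2.21 without single libraries) and, with full-length transcripts, Pcdhgb1 (-0.015) and Pcdhga1 (-1.93; outside the naming rule) in P28 vs P6. Changes that were not called also changed sign. In P6 vs E16 Pcdhgc5 was 0.61 with summed and 1.28 with full-length transcripts (the second called, adjusted p 0.00968, edgeR quasi-likelihood test; -0.22 in the main settings). In P21 vs P14 Pcdhgb1 was -0.36 and Pcdhgc5 -0.28 with full-length transcripts, and in P14 vs P10 Pcdhga11 was -0.023 with library size alone. Without single libraries the ranges that crossed 0 were, in P6 vs E16, -0.16 to 2.204 for Pcdhgc4, -0.018 to 0.056 for Pcdhgb7 and -2.25 to 2.27 for Pcdhb1, which had 0 or 1 count in each of these libraries. In P28 vs P6 they were -0.28 to 0.061 for Pcdha4, -0.39 to 0.18 for Pcdhac1 and -0.15 to 0.024 for Pcdhb16. In P14 vs P10 they were -0.22 to 0.54 for Pcdha1, -0.0998 to 0.27 for Pcdhga11 and -0.27 to 0.62 for Pcdhgc4, and in P21 vs P14 -0.33 to 0.98 for Pcdhb1 and -0.33 to 0.11 for Pcdhga11. Of the alternatives for the 19 genes named by the rule, 24 values changed sign, 24 gained a call, 26 lost one and 1038 kept the direction and the side of the threshold.

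Replicate numbers did not pair the libraries: over 66 pairs of stages the correlation of replicate deviations was -0.118 to 0.215, with 6 above 0.1. With the replicate block the counts were 57, 45, 13 and 4 in the planned comparisons, and 3 and 3 in P14 vs P10 and P21 vs P14. Without the 3 uncertain entries (chosen after seeing the data) the planned counts were 54, 43, 12 and 3. Depth limits alpha genes at E11 and E12, where counts are few, and 2 libraries a stage limit all others.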
